A study of Xenopus laevis with 14 samples.

Results

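The comparison is of 4 RNA libraries, out of the 14 samples of the study: 2 from neuralized ectoderm that received a fusion of prdm12 with the repressor domain of engrailed (engR) and 2 from neuralized ectoderm that received prdm12 itself. They were taken by the names of their columns in the deposited expression table, replicate 1 was paired with replicate 1 and replicate 2 with replicate 2, and 12937 genes with a mean of at least 10 over the 10 RNA libraries of the study were tested. The tissue was the animal cap of Xenopus laevis, the presumptive ectoderm of the early embryo, dissected at about stage 10 from embryos that had been injected with RNA when they had 2 cells. In both groups the injected RNA included noggin, and the caps were treated with retinoic acid. The labels give neither the amount of each RNA, nor the species of the prdm12 coding sequence, nor the stage at harvest, and they do not say whether replicates came from separate clutches. The other 3 groups of 2 libraries entered the same fit: untreated wild-type caps, caps with noggin and retinoic acid alone, and caps with noggin, retinoic acid and prdm12 fused to the VP16 activation domain.

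Noggin is a secreted inhibitor of BMP signalling. Ectoderm that is kept from BMP signals becomes neural in place of epidermal, and retinoic acid gives neural tissue a posterior character, that of hindbrain and spinal cord. Prdm12 is a zinc-finger protein with a PR domain that marks the p1 progenitor domain of the ventral neural tube, the source of inhibitory V1 interneurons that express En1, and it restricts the genes of neighbouring progenitor domains. In mammals it is also needed in sensory ganglia for neurons that sense pain. The engrailed repressor domain recruits co-repressors, so a fusion to it is used as an obligate repressor at the sites its partner binds. The comparison asks in which genes caps with this obligate repressor differed from caps with the native protein.

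The 4 libraries held between 11986697 and 15527398 reads on genes, and the values below are normalized read counts, that is, reads divided by a factor for each library. Replicate 1 of the fusion is titled as engR, whereas its treatment label gives VP16. Across the tested genes its log2 values correlated at 0.959 with engR replicate 2 and at 0.850 and 0.871 with the VP16 libraries, and its en1 value was 268, against 264 in engR replicate 2 and 1.15 and 1.96 with VP16. With prdm12 replicates 1 and 2 this library correlated at 0.969 and 0.93, so the correlations set it apart from VP16 but not from prdm12. It was kept in the engR group, by its title. The share of read records that did not align uniquely was 34.1% and 34.2% in the engR libraries and 27.5% and 27.9% in the prdm12 libraries, and the part of this difference in the results was not tested.

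Caps with the fusion carried more RNA for somatostatin (sst), for the touch channel gene PIEZO2, and for a group of epithelial genes that includes esrp1, anxa4 and MYO5C, and less for clusterin (clu). In all, 11 genes were higher with engR (0.0850% of the genes tested) and 2 were lower (0.0155%), 13 together (0.100%), in limma with a replicate block and a Benjamini-Hochberg adjusted p under 0.05. In all 1438 genes, these 13 included, had an unadjusted p under 0.05. The call rests on the pairing: without the replicate block limma called 0 genes, with 679 at an unadjusted p under 0.05 and a smallest adjusted p of 0.227. On the recovered reads, with the same block, edgeR called 40 genes (0.309%), 35 higher and 5 lower, and DESeq2 called 476 (3.68%), 369 higher and 107 lower, and both included all 13. A gene that enters the test only through the group in which it is high was selected in part for that difference. Of the tested genes, 122 had a mean under 10 over the 8 libraries other than engR. They held 1 of the 13 limma calls (avp), 4 of the 40 edgeR calls and 11 of the 476 DESeq2 calls. Through the prdm12 libraries alone 52 genes passed the filter, and limma, edgeR and DESeq2 called 0 of them. Of the list members below, 6 would not have entered without the engR libraries and 4 without the prdm12 libraries, htr1a and gad2 among the latter. gata4 is counted on both sides, with a mean of 5.58 without engR and 9.43 without prdm12. Leaving out any one of the 8 neuralized libraries left no gene called, with a smallest adjusted p between 0.0543, without VP16 replicate 1, and 0.345, without prdm12 replicate 2, whereas leaving out wild-type replicate 1 or 2 gave 54 and 52 calls.

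**Figure D1:**
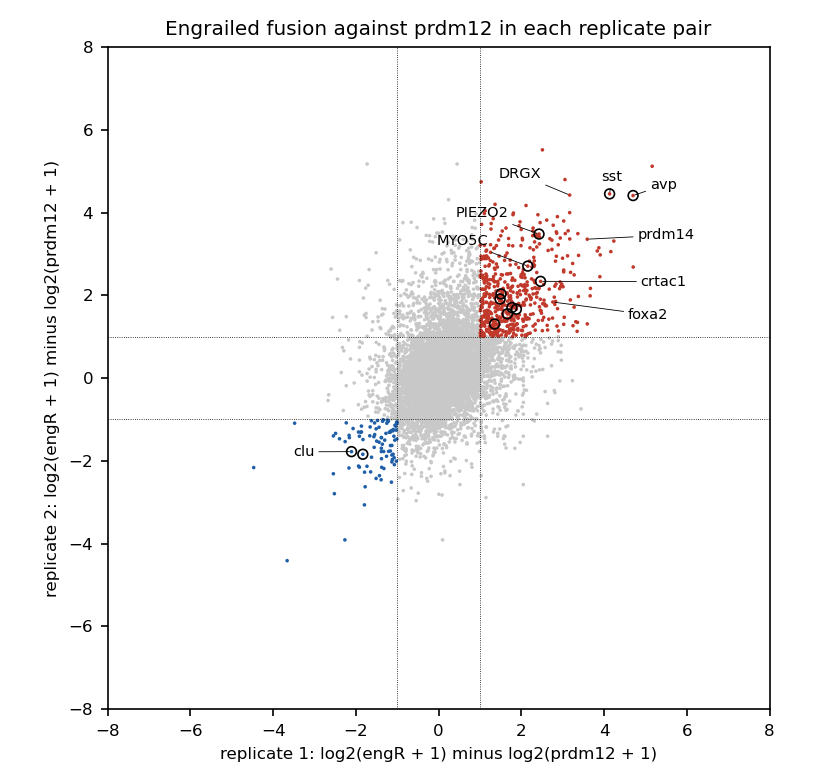
Each of the 12937 genes is a point, placed by its log2 difference between engR and prdm12 in replicate 1 (x axis) and in replicate 2 (y axis), both as log2(value + 1). Red and blue points were at least 2-fold higher (540 genes) or lower (90 genes) in both pairs, dotted lines mark 2-fold, and open circles are the 13 genes called by limma.

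The 2 secreted peptide genes among the calls showed the widest gaps. Somatostatin, a peptide that inhibits hormone release and is a transmitter of some inhibitory neurons, had values of 272 and 91.7 with prdm12 and 4776 and 2026 with engR. The lower engR library was thus well above the higher prdm12 library, and in both groups replicate 1 was the higher one. Its log2 difference was 4.29 with a standard error of 0.45 (limma adjusted p = 0.0363). Vasopressin, a hypothalamic hormone that regulates water balance, had 7.39 and 4.96 with prdm12 and 217 and 126 with engR, and its place among the calls is not read as support, since its mean over the other 8 libraries was 5.98. It was listed at 0 in both wild-type libraries and stood at 13.8 and 17.6 with noggin and retinoic acid alone, above the prdm12 libraries.

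PIEZO2 encodes the mechanically gated channel of touch receptors and Merkel cells. Its values were 108 and 68.6 with prdm12 and 585 and 775 with engR, and 39 and 36 with noggin and retinoic acid alone. Both engR libraries exceeded every other library of the study, and the prdm12 libraries lay above the noggin libraries by less than the test required (log2 difference 1.18, limma adjusted p = 0.18). Between engR and prdm12 the log2 difference was 2.95 with a 95% interval of 2.20 to 3.71 (limma adjusted p = 0.0389).

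A group of the higher genes is known from epithelia. esrp1 encodes an RNA-binding protein that directs epithelial splicing, and its values were 293 and 221 with prdm12 and 834 and 906 with engR, a log2 difference of 1.77 ± 0.21 (SE; limma adjusted p = 0.0466). anxa4, a calcium-dependent membrane-binding annexin, was at 6042 and 5525 with prdm12 and at 15422 and 13660 with engR, a log2 difference of 1.33 ± 0.13 (SE; limma adjusted p = 0.0363). MYO5C, an unconventional myosin that carries secretory vesicles in epithelial cells, was at 237 and 188 with prdm12 and at 1061 and 1228 with engR, a log2 difference of 2.43 ± 0.24 (SE; limma adjusted p = 0.0363). In all of them the noggin libraries lay below prdm12 and the wild-type libraries, which are caps that become epidermis, lay above engR: esrp1 was at 9710 and 10603 in wild type and at 67.5 and 82.0 with noggin.

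The same order held for myo10, a myosin of filopodia, which had 242 and 399 with prdm12, 768 and 1172 with engR and 2041 and 2300 in wild type, a log2 difference of 1.61 ± 0.19 (SE; limma adjusted p = 0.0466). Over the 11 genes that rose, the mean of the wild-type libraries was above that of engR in 6, and the share over all genes tested was not computed.

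Among the others that rose, ptprd encodes a receptor tyrosine phosphatase that organizes synapses. It had 750 and 681 with prdm12 and 2101 and 2563 with engR, against 649 and 694 with noggin, and engR stood above all other libraries of the study (log2 difference 1.70 ± 0.20 SE; limma adjusted p = 0.0466). crtac1, a secreted protein of cartilage and nervous tissue, had 50.8 and 138 with prdm12 and 285 and 701 with engR, a log2 difference of 2.40 ± 0.25 (SE; limma adjusted p = 0.0363). hgf, the growth factor that binds the Met receptor, had 68.4 and 145 with prdm12 and 236 and 476 with engR, a log2 difference of 1.74 ± 0.21 (SE; limma adjusted p = 0.0466). For crtac1 and hgf replicate 2 was the higher library in each of the 5 groups, and the prdm12 and engR libraries did not overlap.

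Clusterin, a secreted chaperone, fell. Its values were 1776 and 3611 with prdm12 and 412 and 1052 with engR, against 3180 and 7586 with noggin and retinoic acid alone and 9.26 and 25.2 in wild type. Both prdm12 libraries were above both engR libraries, and the log2 difference was -1.94 ± 0.15 (SE; limma adjusted p = 0.0287). The other gene that fell has no symbol in the files (ENSXETG00000002138, an uncharacterized protein), and moved from 615 and 1177 to 172 and 328, a log2 difference of -1.84 ± 0.20 (SE; limma adjusted p = 0.0365).

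**Figure D2:**
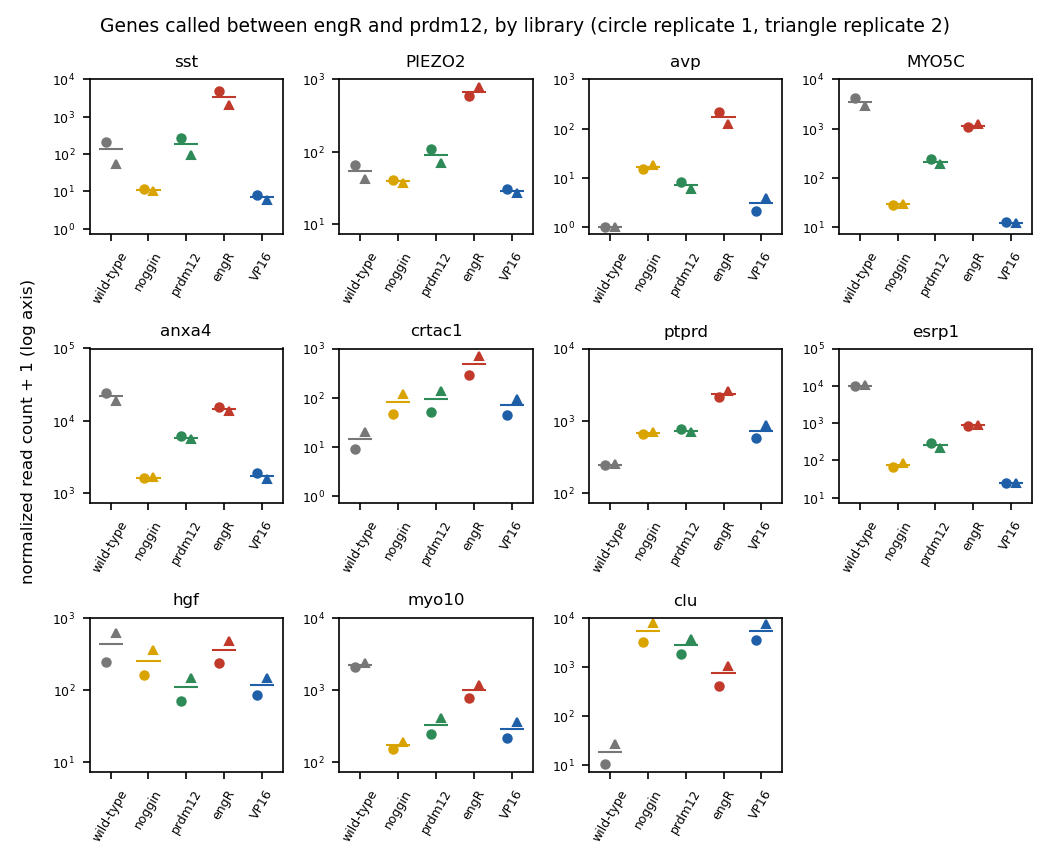
Normalized read count plus 1 (log axis) of 11 of the 13 called genes in all 10 RNA libraries, with circles for replicate 1, triangles for replicate 2 and a bar at the mean of each group. sst, PIEZO2 and avp are highest with engR, MYO5C, anxa4, esrp1 and myo10 are higher still in wild-type caps, and clu falls from noggin through prdm12 to engR.

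Of the 11 genes that rose, 9 had their mean with noggin below that with prdm12 and that below engR, and the exceptions were hgf and avp, whose prdm12 mean was at or below noggin. The VP16 mean was below the prdm12 mean in 9 of the 11. The same shares over all genes tested were not computed, so these counts only describe the called genes, avp included. Differences from the noggin libraries share those libraries with each other, and they are therefore only set side by side. Between prdm12 and noggin 102 genes were called higher (0.788%) and 19 lower (0.147%), and between engR and noggin 933 were called higher (7.21%) and 481 lower (3.72%), in the same limma fit. For sst the log2 difference from noggin was 3.87 with prdm12 and 8.16 with engR, for MYO5C 2.89 and 5.32, and for anxa4 1.84 and 3.17.

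DRGX and foxa2, which with PIEZO2 were named as markers of this comparison, did not pass the limma threshold. DRGX encodes a paired homeodomain protein of pain-sensing neurons and their spinal targets. Its values were 13.9 and 4.96 with prdm12 and 132 and 127 with engR, and every other library of the study was at 18.4 or below. It too entered the test only through the engR libraries, with a mean of 9.21 over the other 8, and no test of it is read. foxa2 encodes the forkhead protein that specifies floor plate and endoderm. It had 162 and 211 with prdm12 and 1100 and 755 with engR, without overlap, a log2 difference of 2.30 with an interval of 1.60 to 2.99 (limma adjusted p = 0.0613; edgeR adjusted p = 0.0337). Without the replicate block the adjusted p was 0.279 for foxa2 and 0.227 for PIEZO2.

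The p1 and V1 genes that stood above noggin with prdm12 stood above it with the fusion too, and none of them passed the test between the constructs. prdm12 itself, whose line may also hold reads of the injected RNA, had 160 and 209 with prdm12 and 262 and 160 with engR, and the groups overlapped. en1, the marker of V1 interneurons, had 482 and 299 with prdm12 and 268 and 264 with engR, against 4.88 and 1.67 with noggin. Its log2 difference between engR and prdm12 was -0.51 with an interval of -1.72 to 0.69. From noggin en1 was higher by 6.59 with prdm12 and by 6.07 with engR on the log2 scale (limma adjusted p = 0.0067 and 0.0014).

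slc32a1, the vesicular transporter of GABA and glycine, had 4660 and 3171 with prdm12 and 5417 and 5284 with engR, against 34.1 and 82.0 with noggin. pax2, a transcription factor of inhibitory interneurons, had 1374 and 1493 with prdm12 and 1824 and 1943 with engR. Their intervals between engR and prdm12 were -0.83 to 1.78 and -0.74 to 1.53 on the log2 scale. lhx1 and foxd3, transcription factor genes of V1 cells, had 3901 and 5423 and then 4347 and 4039, and 1007 and 1216 and then 1004 and 717. gad1, which makes GABA, was lower in both engR libraries (2125 and 2204) than in both prdm12 libraries (4393 and 4028), with an interval from -2.93 to 1.01. Over the 18 tested genes of the V1 and inhibitory list, 0 passed limma, 6 were higher and 4 lower without overlap between the groups, and the median log2 difference was 0.01 (-0.11 after quantile normalization, -0.09 without prdm12 replicate 1 and 0.35 without prdm12 replicate 2), beside 15.7% higher and 12.8% lower without overlap and a median of -0.01 over all genes tested. DESeq2 called pax8 and nr5a2 higher and prdm8 lower in this list. prdm8, a PRDM relative of prdm12, had 338 and 581 with prdm12 and 135 and 127 with engR, the other groups except wild type being at 373 or above.

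In nkx6-1, dbx1 and vsx1, genes of the neighbouring progenitor domains, the engR libraries lay nearer to noggin than the prdm12 libraries did. nkx6-1, a homeobox gene of the ventral domains next to p1, had 426 and 291 with noggin, 14.8 and 23.1 with prdm12 and 105 and 64.9 with engR. Its log2 difference from noggin was -4.18 with prdm12 and -2.08 with engR (limma adjusted p = 0.012 and 0.027), and that between engR and prdm12 was 2.10 ± 0.45 (SE; limma adjusted p = 0.141). dbx1, the p0 gene, had 724 and 1023 with noggin, 144 and 303 with prdm12 and 731 and 750 with engR, and both engR libraries lay within the noggin range. The log2 difference was 1.82 ± 0.50 (SE; limma adjusted p = 0.222; DESeq2 adjusted p = 0.00343). vsx1, a V2 gene, was at 1777 and 1354 with noggin, 285 and 335 with prdm12 and 425 and 431 with engR, and its difference between the constructs was 0.47 with an interval from -0.04 to 0.99.

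gata3, a gene of V2b interneurons that the epidermis also expresses, had 479 and 276 with prdm12 and 1601 and 1097 with engR (log2 difference 1.86 ± 0.41 SE; limma adjusted p = 0.144), and sim1, a gene of V3 interneurons, had 85.9 and 98.3 and then 318 and 338. nkx6-2 overlapped, with 511 and 1438 for prdm12 and 845 and 716 for engR. In this list of 23 tested genes 9 (39.1%) were higher and 4 (17.4%) lower without overlap, beside 15.7% and 12.8% of all genes tested. The median of the list was 0.47 (0.31 without prdm12 replicate 2 and 0.89 without engR replicate 2). DESeq2 called 5 of the list higher and 0 lower, beside 3.68% of all genes called in either direction, while limma called 0. These shares over all genes are the background for the list counts below. Of the 13 tested genes of the floor plate list, foxa2 among them, 2 were higher and 5 lower without overlap, with a median of -0.31, or 0.06 without engR replicate 2. The netrin that guides commissural axons has 2 lines in the files: ntn1 had 139 and 315 with prdm12 and 80.3 and 77.3 with engR, whereas in the line NTN1, at 860 and 1216 and then 1003 and 1590, the groups overlapped, and the counting may split reads between them. foxa1 had 2139 and 2822 and then 2030 and 1852.

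**Figure D3:**
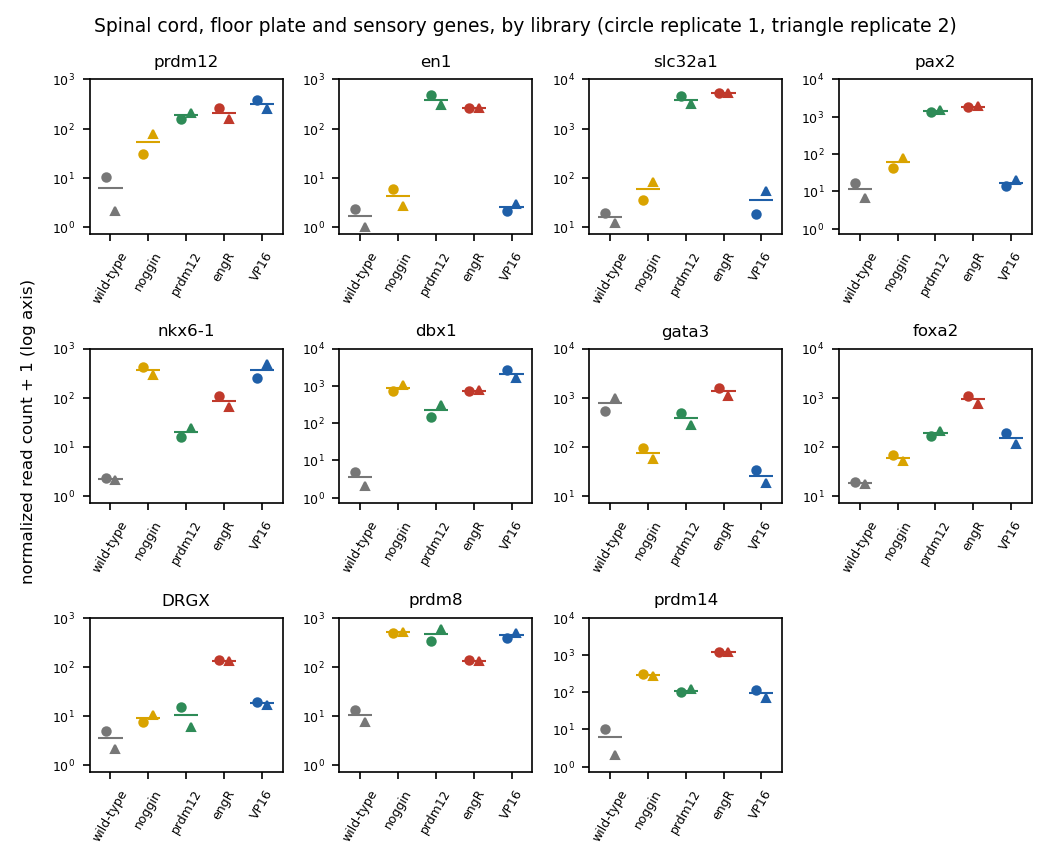
Normalized read count plus 1 (log axis) of 11 patterning genes in the 10 RNA libraries, with circles for replicate 1, triangles for replicate 2 and a bar at the group mean. en1, slc32a1 and pax2 are high with both prdm12 and engR, nkx6-1 with engR lies between prdm12 and noggin, and foxa2, DRGX and prdm14 are highest and prdm8 is lowest among the neuralized groups with engR.

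Of the 29 tested genes of the somatosensory list, 15 (51.7%) were higher with engR without overlap and 5 (17.2%) lower. The median log2 difference was 0.44 (0.28 after quantile normalization and 0.79 without engR replicate 2). PIEZO2 passed limma, and DESeq2 called 8 higher and 0 lower, beside 3.68% of all genes called in either direction. NTRK3, the receptor of neurotrophin 3 on proprioceptors and touch neurons, had 26.8 and 56.2 with prdm12 and 141 and 234 with engR (limma adjusted p = 0.103). With noggin and retinoic acid alone NTRK3 was at 64.2 and 97.0, above both prdm12 libraries and below both engR libraries. avil, an actin regulator of peripheral sensory neurons, had 30.5 and 68.6 and then 137 and 185. hmx3, a homeobox gene of the ear, lateral line and dorsal interneurons, had 615 and 648 and then 1777 and 2125, and tlx3, a selector of excitatory sensory relay neurons, 92.4 and 123 and then 204 and 222, both without overlap and neither past the limma threshold. isl2, a gene of motor and sensory neurons, went the other way, with 592 and 560 for prdm12 and 491 and 461 for engR.

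The neuropeptide and hormone list had 8 of 16 tested genes higher without overlap and 0 lower, with a median of 0.97, and 15 of the 16 differences were above 0. Besides sst these included CARTPT, a peptide of feeding and reward circuits, with 12.0 and 7.43 for prdm12 and 73.0 and 384 for engR. With noggin and retinoic acid alone CARTPT was at 37.4 and 245, above both prdm12 libraries and overlapping engR. chgb, a protein of secretory granules, had 255 and 194 and then 452 and 532, and adcyap1, the peptide PACAP, 21.2 and 31.4 and then 76.1 and 109. None of these 3 passed limma (adjusted p between 0.185 and 0.308). Gamma-synuclein (sncg), a protein of peripheral neurons that is in no list and was chosen after its values were seen, had 20.3 and 30.6 with prdm12 and 761 and 1095 with engR, a log2 difference of 5.14 ± 0.85 (SE; limma adjusted p = 0.093). It stood at 3.25 and 80.3 with noggin and retinoic acid alone, on either side of the prdm12 libraries. prdm14, a PRDM relative known for germ cells and for primary sensory and motor neurons of fish, had 99.8 and 117 and then 1214 and 1210. For prdm14 the 2 engR libraries were above 298, the highest of all the others. edgeR called prdm14 (adjusted p = 0.027) and limma did not (adjusted p = 0.093).

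The epidermal list leaned to higher and the multiciliated list to lower values with the fusion, although limma called 1 gene of the first and 0 of the second. Of 39 tested epidermal genes 24 (61.5%) were higher without overlap and 0 lower, beside 15.7% and 12.8% of all genes tested. In both pairs 14 were at least 2-fold higher, beside 4.17% of all genes. The median log2 difference was 1.21 (0.79 without engR replicate 2). Of this list esrp1 passed limma, and DESeq2 called 12 higher and 0 lower, beside 3.68% of all genes called in either direction. The transcription factor gene tfap2c had 117 and 56.2 with prdm12 and 501 and 260 with engR, a log2 difference of 2.14 ± 0.27 (SE; limma adjusted p = 0.0543; edgeR adjusted p = 0.0353). The claudin gene cldn7, of tight junctions, had 338 and 287 and then 785 and 776. The keratin line krt12 had 261 and 344 and then 1034 and 1644, and the neighbouring line KRT12 454 and 295 and then 1843 and 1595, and these close paralogs may share reads.

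These epidermal levels remained far under those of untreated caps, where krt12 was at 283374 and 242427. The summed level of the list was 39971 and 35380 with prdm12, 55134 and 45459 with engR, 38805 and 29021 with noggin, 71317 and 50510 with VP16 and 1011010 and 942559 in wild type. Both VP16 libraries, and both engR libraries, were thus above both prdm12 libraries in the sum. In RNA from whole caps, more cells of a type and more RNA in each of them cannot be told apart. The list for goblet, ionocyte and small secretory types had 7 of 14 genes higher and 1 lower without overlap, with a median of 0.72 (0.41 without engR replicate 2); after quantile normalization these were 6, 3 and 0.41. Among its members were the ionocyte genes ca2, a carbonic anhydrase, with 101 and 155 and then 532 and 1675, and foxi1, with 5.54 and 4.96 and then 15.6 and 51.5, against 4674 and 2855 for foxi1 in wild type. With noggin and retinoic acid alone ca2 was at 285 and 411, above both prdm12 libraries and below both engR libraries.

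Of the 30 tested genes of multiciliated cells, the epidermal cells that drive fluid over the skin, 20 (66.7%) were lower without overlap and 1 higher, with a median of -0.63 (-0.35 without prdm12 replicate 2). armc4, which docks the outer dynein arms, had 796 and 505 with prdm12 and 393 and 240 with engR, a log2 difference of -1.04 ± 0.15 (SE; limma adjusted p = 0.0761). tekt1, a filament protein of the axoneme, had 576 and 526 and then 264 and 266, and enkur 819 and 706 and then 435 and 332. foxj1, the master regulator of motile cilia that is also expressed in the floor plate, had 699 and 721 and then 575 and 454, while with noggin it was at 1921 and 1345. In this list 0 genes passed limma, and DESeq2 called 0 higher and 6 lower. Its median difference from noggin was -0.90 with prdm12 and -1.53 with engR. The summed level of the list was 12798 and 13145 with prdm12 and 9323 and 7949 with engR. It was 27795 and 22388 with noggin and 44008 and 25773 in wild type. Unlike in the epidermal list, the sums with noggin and in wild type overlapped, so this list is not read as a measure of epidermal cells.

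**Figure D4:**
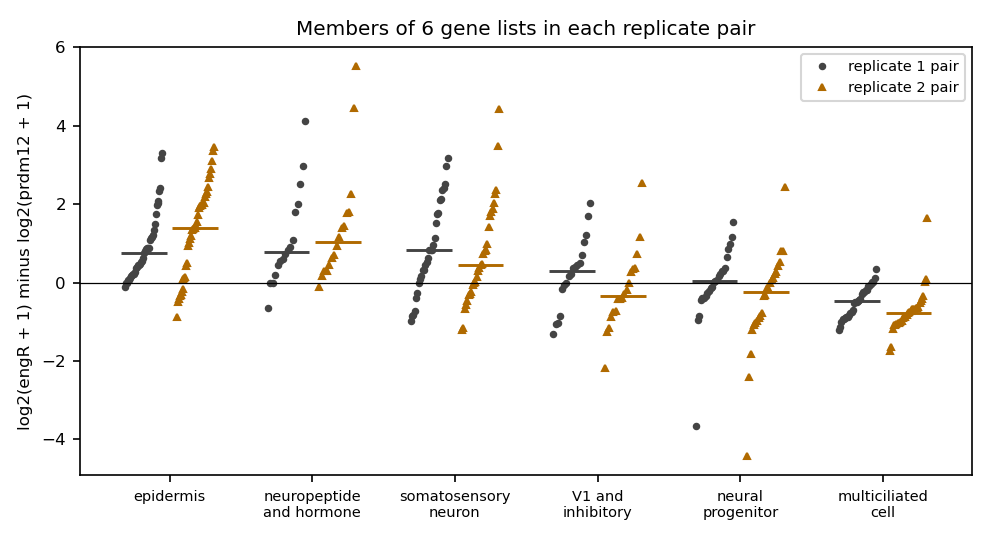
Log2 difference between engR and prdm12, as log2(value + 1), of every tested member of 6 gene lists, sorted within each replicate pair, with circles for the replicate 1 pair, triangles for the replicate 2 pair and a bar at the median. Epidermal members lie mostly above 0 and multiciliated members mostly below 0 in both pairs, while the V1 and the progenitor lists straddle 0.

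The placode list, of genes that mark the ectodermal thickenings that form sense organs and cranial ganglia, had 8 of 21 genes higher and 1 lower without overlap, with a median of 0.73 (0.44 without prdm12 replicate 2), and after quantile normalization 6 and 2, with a median of 0.40. The neural progenitor list had 2 of 24 higher and 7 lower, with a median of -0.06 (-0.24 without engR replicate 1 and -0.19 after quantile normalization). sox1, a neural plate gene, had 170 and 539 and then 87.6 and 101, and msi1, an RNA-binding protein of neural stem cells, 4054 and 5861 and then 3186 and 3151. In the dorsal list 3 of 14 were higher and 6 lower, with a median of -0.04 (-0.70 without prdm12 replicate 1, 0.10 without engR replicate 2 and -0.35 after quantile normalization), among them lmx1a, the roof plate gene, with 17.6 and 31.4 and then 3.13 and 6.18.

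The neurotransmitter receptor list had 11 of 31 higher and 3 lower without overlap, with a median of 0.44 (0.16 without engR replicate 1). gabra5, a GABA receptor subunit, had 37.0 and 95.8 with prdm12 and 270 and 467 with engR (edgeR adjusted p = 0.0444), while the nicotinic receptor gene chrnb2 went from 1439 and 1089 to 509 and 378, although it was at 133 and 127 with noggin. The ion channel list had 11 of 46 higher (23.9%) and 8 lower (17.4%), beside 15.7% and 12.8% of all genes tested. The median of this list was 0.33 (0.12 without engR replicate 1 and 0.51 without engR replicate 2). The pan-neuronal list had 9 of 41 and 3, with a median of 0.13 (-0.07 and 0.43 without the same libraries). The neuronal commitment genes neurod4 and insm1 were lower without overlap, the first at 1409 and 1825 and then 643 and 589, and the second at 1242 and 1949 and then 765 and 703. Neither passed limma (adjusted p = 0.217 and 0.262), while DESeq2 called both (adjusted p = 0.00302 and 0.0374). In the pan-neuronal list DESeq2 called 0 genes higher and 2 lower.

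The retinoic acid and Hox list was split, with 15 of 49 higher and 12 lower without overlap and a median of 0.05 (-0.17 without engR replicate 1 and 0.15 without engR replicate 2). cyp26c1 and cyp26a1, enzymes that degrade retinoic acid, were lower without overlap, cyp26c1 at 16327 and 33803 and then 10489 and 7762 and cyp26a1 at 86035 and 122528 and then 71330 and 55506. aldh1a1, an enzyme that makes it, was higher, at 71.1 and 164 and then 237 and 560. It was at 27.6 and 19.2 with noggin and retinoic acid alone and at 2614 and 2529 in wild type, the order seen in esrp1. The BMP and TGF-beta list had 7 of 21 higher and 2 lower, with a median of 0.48 (0.21 without engR replicate 1 and 0.27 after quantile normalization), and id3, a BMP target, had 155 and 447 and then 635 and 989. With noggin and retinoic acid alone id3 was at 450 and 959, above both prdm12 libraries and overlapping engR. The mesoderm and muscle list had 3 of 27 higher and 5 lower, with a median of 0.20 (-0.19 after quantile normalization and -0.24 without engR replicate 2). Among its members of lowest p, neither of them past limma, myod1, the myogenic regulator, had 71.1 and 283 and then 19.8 and 33.0, and the cardiac actin gene actc1 2271 and 945 and then 431 and 341. In contrast lmo2 had 771 and 113 and then 1159 and 432, with overlap. Of the 27 differences in this list 15 were above 0 and 12 below. The endoderm and notochord list had 7 of 21 higher and 2 lower, with a median of 0.16 (0.06 without prdm12 replicate 1 and 0.52 without engR replicate 2). Cell cycle genes had 0 of 30 higher and 1 lower, Notch genes 0 of 18 and 1, and housekeeping genes 3 of 22 and 7, with medians of 0.02, -0.15 and -0.12. Leaving out 1 library moved the cell cycle median to -0.24 (prdm12 replicate 2) or 0.27 (prdm12 replicate 1), that of the Notch genes to -0.27 (prdm12 replicate 1) or 0.05 (engR replicate 2), and that of the housekeeping genes to -0.05 (engR replicate 2). The remaining lists had both directions without overlap: the excitatory list 4 of 10 higher and 1 lower, the motor and cholinergic list 5 of 13 and 1, the neural crest list 6 of 25 and 6, and the Wnt and FGF list 13 of 38 and 9. The stress and immediate early list had 8 of 30 higher and 3 lower, the retina and forebrain list 3 of 10 and 1, and the list of chromatin partners and relatives of PRDM proteins 6 of 30 and 6 (20% each way). Over all genes tested 15.7% were higher and 12.8% lower without overlap, and the counts of these remaining lists are not read as results about them.

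**Figure D5:**
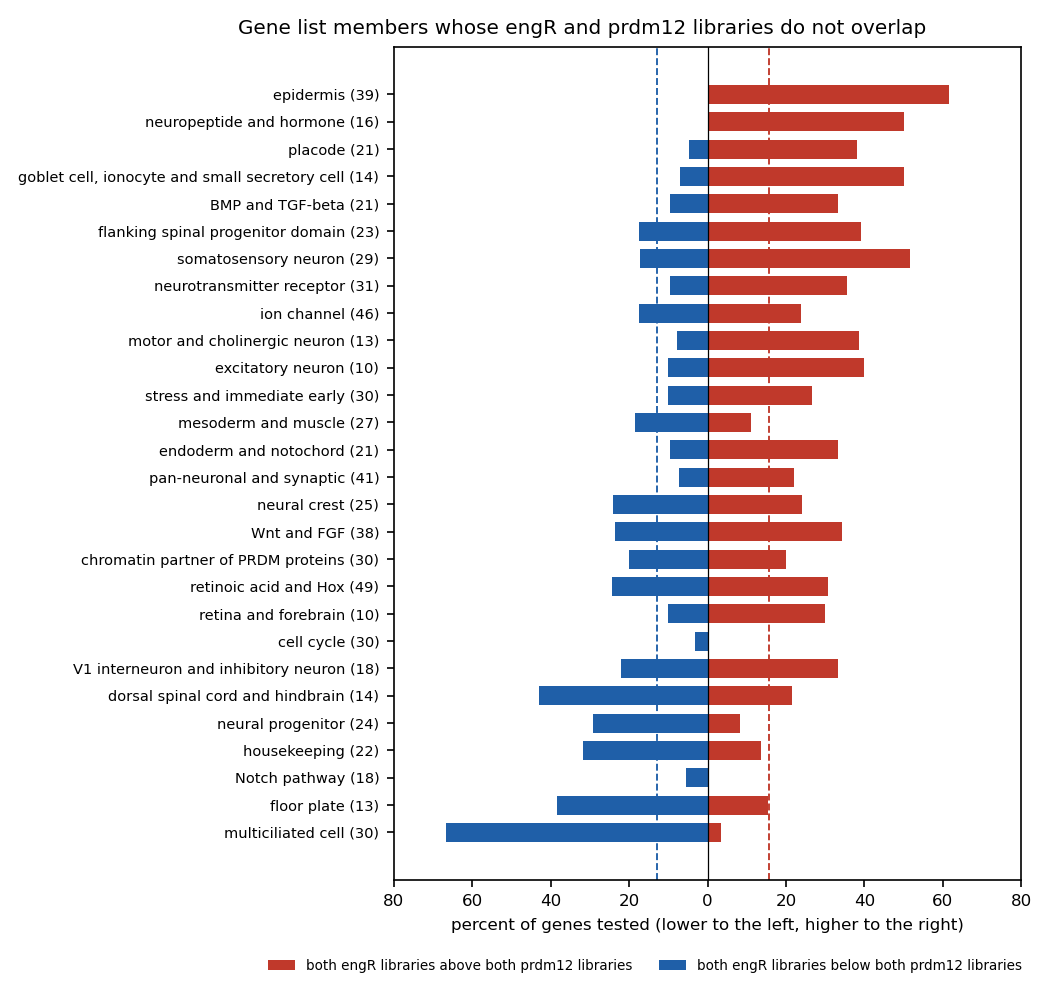
For each of 28 gene lists (tested members in brackets), the percent of members whose 2 engR libraries were both above (red, right) or both below (blue, left) the 2 prdm12 libraries, ordered by the median log2 difference. Dashed lines mark the same shares over all 12937 genes, 15.7% and 12.8%, and the epidermal list (61.5% higher) and the multiciliated list (66.7% lower) reach farthest to either side.

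The wider set of genes that were at least 2-fold apart in both replicate pairs leaned to one side, with 540 higher with engR (4.17%) and 90 lower (0.696%). Of the 540, 40 had a mean under 10 in the 8 libraries other than engR. Of the 90, 10 had a mean under 10 in the 8 libraries other than prdm12. The split into 540 and 90 depended on the scaling: after quantile normalization 438 were higher and 239 lower, so that 64.7% in place of 85.7% of them were higher. The differences of the 2 pairs correlated at 0.442 across genes, and genes are not independent replicates. The untreated and the noggin libraries took part in choosing these genes only through the filter on the mean over the 10 libraries, and they were used to describe them. Among the 540, 321 (59.4%) were called higher in wild-type caps than with noggin and retinoic acid and 129 (23.9%) lower, beside 28.7% and 29.6% of all genes tested. Among the 90, 20 (22.2%) were called higher in wild-type caps and 47 (52.2%) lower.

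A gene could pass the filter on low values through the wild-type libraries, which bears on these shares. In a split added after seeing the data, with a mean of at least 50 over the 4 compared libraries, 295 of the 540 and 45 of the 90 were left. Of the 295, 150 (50.8%) were higher in wild-type caps than with noggin and 108 (36.6%) lower, beside 25.1% and 33.3% of the 10276 genes at that level. Of the 45, 5 (11.1%) were higher and 35 (77.8%) lower. No test was made of these shares.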

How the data were processed

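RNA was sequenced from poly-A libraries of 10 animal cap samples, prepared with a non-stranded kit according to the labels' protocols. The authors deposited a normalized signal per gene, which the values show to be whole reads divided by 1 factor per library: in each library 100% of the values gave whole reads, to within 0.05 of a read. The submitters' processing notes name Bowtie2, Bowtie, edgeR and HOMER without their roles. The gene counter and the build are not given in the sources used here. Lines are Xenopus tropicalis Ensembl genes, so both homeologs of Xenopus laevis share 1 line, and paralogs, overlapping and antisense genes are uncertain. The table had 19921 genes and 5 special counter lines, which were dropped. The ChIP peak lists were not used, and some genes that meet the rule for naming are not reported here.

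limma 3.58.1 in R 4.3.3 was fitted with an intensity trend to log2(value + 1) of 12937 genes with a mean of at least 10, in all 10 libraries (5 groups of 2), with group and replicate number as terms (residual degrees of freedom 4, prior 3.59); tests were two-sided and adjusted over all genes by Benjamini and Hochberg, at 0.05. Fold changes on this scale understate those of low genes. What a replicate number stands for is not in the labels. Pairing by number was set by the rule of the comparison, and the deviations of same-numbered libraries also ran together, though less so with wild type. Between neuralized groups the replicate 2 minus replicate 1 difference had a correlation from 0.514 to 0.791, and of 0.584 for prdm12 and engR. Between wild type and each neuralized group it was from 0.222 to 0.251. The p-values measure the spread between these libraries, which may be technical. edgeR 4.0.16 and DESeq2 1.42.0 were run on the recovered reads with the same block, and the limma script was tested on simulated data. Without overlap means that both engR libraries lay above, or below, both prdm12 libraries.

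The comparison, the 28 gene lists (826 symbols, 739 of them in the table, 627 lines tested) and the named genes were chosen with earlier results of these data known. By rule the text could name up to 15 called genes per direction, from every list the 4 members of lowest p at most, and PIEZO2, DRGX, foxa2, foxa1, prdm12, en1, pax2, slc32a1, nkx6-1, nkx6-2, vsx1, dbx1, hmx3, sst, isl2 and tlx3. ENSXETG00000002138, sncg, gad1, lhx1, foxd3, NTN1 and the genes of the last section were chosen after values were seen. The wild-type columns carry a code and were matched to untreated caps, since all remaining columns name a construct. Alternatives were other pseudocounts, filters and scalings, no trend, library weights, fewer libraries, no block and each library left out. Figures were drawn with matplotlib 3.10.9.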

Additional observations from a re-analysis of the deposited data

How the results depend on the processing

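The count of called genes moved with many choices, beside 11 higher and 2 lower. It moved little or not at all with others. Quantile normalization gave 13 calls, 12 of them shared, and median ratio scaling gave the same 13. A mean of at least 50 gave 12 and a pseudocount of 0.25 gave 11. A pseudocount of 4 gave 24 higher, no filter on low values 0 higher and 1 lower (the smallest adjusted p was 0.0291), no intensity trend 0 and 0 with a smallest adjusted p of 0.0717 and 1429 genes at an unadjusted p under 0.05, and library weights 68 and 18. The fit of the 4 compared libraries alone gave 175 and 20, and that of the 8 neuralized libraries 40 and 13. Without the replicate block there were 0 and 0, edgeR gave 35 and 5, and DESeq2 369 and 107. Leaving out 1 library gave between 0 and 40 higher and between 0 and 14 lower; only the wild-type libraries gave calls when left out. The causes of these shifts were not tested. Each of the 13 kept its sign in every setting in which it was tested (12 of them at a mean of at least 50). Genes 2-fold apart in both pairs, an added measure, numbered 352 higher and 52 lower at a mean of at least 50 and 239 lower after quantile normalization. Reversals among the named genes came only from leaving out 1 library and only in 7 genes that had not passed the test, whose log2 differences then ranged from -0.31 to 0.63 in prdm12, -0.69 to 0.42 in lhx1, -1.06 to 0.78 in nkx6-2, -1.31 to 0.54 in foxd3, -0.055 to 1.01 in slc32a1, -0.034 to 0.64 in NTN1 and -1.92 to 0.0016 in gad1. The median changed sign under some setting in 12 of the 28 lists, and those of the epidermal and multiciliated lists did not. The sign changes were not limited to medians near 0. That of the excitatory list went from 0.32 to -0.03 without prdm12 replicate 1. That of the floor plate list went from -0.31 to 0.06 without engR replicate 2. Each group had 2 libraries, which limits the precision, and genes under a mean of 10 were not tested.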

Other observations

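Several genes outside the lists, chosen after their values were seen, were far apart between the constructs. apoe, an apolipoprotein of lipid transport, had 12.0 and 6.61 with prdm12, 116 and 121 with engR and 4095 and 7430 in wild-type caps (edgeR adjusted p = 0.0274). trpm5, a cation channel of taste cells, had 104 and 137 with prdm12, 340 and 405 with engR and 9789 and 10182 in wild type (edgeR adjusted p = 0.0274). In both of them wild-type caps held the highest values. uncx, a homeobox gene of spinal interneurons and somites, had 61.9 and 18.2 with prdm12 and 324 and 111 with engR, and was at 1.32 and 0 in wild type (edgeR adjusted p = 0.0398).

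None of the genes in this section passed limma. cdh24, a cadherin, had 5.54 and 28.1 with prdm12 and 122 and 287 with engR, and entered the test only through the engR libraries (mean 7.61 over the other 8). sema3a, a repellent of growing axons, had 49.0 and 68.6 with prdm12 and 248 and 348 with engR, and 92.7 and 228 with noggin, so that prdm12 was the lowest of these 3 groups. ZNF536, a zinc-finger gene of the nervous system, followed the same order, at 18.5 and 38.8 with prdm12, 140 and 449 with engR and 60.2 and 273 with noggin (edgeR adjusted p = 0.0398).

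Among genes that edgeR called lower, lrp2, the endocytic receptor megalin, had 1077 and 733 with prdm12 and 349 and 194 with engR (adjusted p = 0.0285), and gli1.2, named for the transcription factor at the end of the hedgehog pathway, 493 and 311 and then 167 and 96.9 (adjusted p = 0.0398). For gli1.2 the noggin libraries were at 214 and 165, the lower of them inside the engR range, and for lrp2 they were at 1325 and 782.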
